A study of Homo sapiens with 4 samples.

Results

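LOVO spheroids were compared with HCT116 spheroids, and each difference was read beside the one between the adherent cells of the same lines. Both names belong to human colorectal cancer lines, and the labels call the cells colon cancer cells. RNA-seq was done on 4 libraries, 1 for each condition: adherent HCT116 cells and adherent LOVO cells in RPMI-1640 with fetal bovine serum, and spheroids of each line. The sample labels give the spheroids a treatment of 1 mg/ml without a drug name, while the study's methods describe spheroids formed with oxaliplatin, a platinum drug, at 1 μg/ml, on ultralow attachment dishes in serum-free DMEM/F12 with B27, N2, EGF and bFGF. Growth form, medium, growth factors and drug therefore changed together in both lines, and they cannot be told apart. Of the 58735 genes in the table, 14832 had a mean FPKM (fragments scaled by gene length and library size) of at least 1 over the 2 spheroid libraries and were compared. The line difference is the log2(FPKM + 1) of LOVO minus that of HCT116, so a positive value is higher in LOVO. A gene was called when its line difference in spheroids was past 2 in either direction. With 1 library per condition there is no replicate error and no test, and the intervals given below are 95% exact (Clopper-Pearson) intervals of the log2 ratio of reads, which cover counting error only.

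The reads on genes numbered from 15483569 (HCT116 spheroids) to 20429147 (adherent HCT116 cells), and mitochondrial genes took 11.1% of them in HCT116 spheroids against 3.65% to 6.77% in the other 3 libraries. The libraries labelled LOVO went against their label in the markers of colorectal epithelium. EPCAM, a surface protein of epithelial cells, had an FPKM of 85.6 adherent and 79.3 in spheroids of HCT116, against 0.93 adherent and 1.5 in spheroids of LOVO. E-cadherin (CDH1) stood at 31.1 adherent and 31.1 in spheroids of HCT116, against 0.117 adherent and 0.00805 in spheroids of LOVO. CDX2, the transcription factor that specifies intestinal epithelium, was 3.84 adherent and 3.12 in spheroids of HCT116, against 0 adherent and 0 in spheroids of LOVO. CEACAM5 and VIL1 were listed at 0 in both LOVO libraries, but with at most 0.107 and 0.0946 they were low in HCT116 too. CDX1, CEACAM6, CDH17 and LGALS4 were likewise low in both lines, at most 0.381 FPKM in any library. These low markers do not separate the lines. Keratins 8 and 18 were present in all 4 libraries, KRT19 was 808 adherent and 543 in spheroids of HCT116, against 14.9 adherent and 4.85 in spheroids of LOVO, while KRT7, another epithelial keratin, was 6.53 adherent and 5.56 in spheroids of HCT116, against 242 adherent and 50.3 in spheroids of LOVO. Vimentin (VIM), the intermediate filament of mesenchymal cells, was 0.219 adherent and 0.115 in spheroids of HCT116, against 39.4 adherent and 32.2 in spheroids of LOVO. What follows is therefore a comparison of the libraries labelled LOVO with those labelled HCT116, and in bulk RNA fewer cells of a type and less RNA per cell cannot be told apart.

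Markers of other cell types were also read. The 9 fibroblast markers summed to 5.64 and 16.1 FPKM in adherent HCT116 cells and HCT116 spheroids and to 54.3 adherent and 73.2 in spheroids of LOVO. Of these 9, LUM, DCN and COL3A1 were called higher in LOVO spheroids, with LUM at 50.4 and DCN at 9.97 there, while COL1A2 and PDGFRA had line differences of -0.00 and 0.00 and -0.02 and -0.01 in spheroids and adherent cells. COL1A1, a collagen I chain that made up most of the HCT116 sums, was 5.51 adherent and 15.5 in spheroids of HCT116, against 9.89 adherent and 6.1 in spheroids of LOVO, with line differences of -1.22 and 0.74. Among 10 leukocyte markers, 9 were under 1 FPKM in every library, and the list summed to between 0.25 and 2.57. Of 7 endothelial markers, PECAM1 was called, at 0.0759 adherent and 0.391 in spheroids of HCT116, against 0.0359 adherent and 6.35 in spheroids of LOVO. None of the 7 neural markers was past 2 in either direction. The part of such cells in the results below was not tested.

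Some background helps to read the genes. NF-κB is a family of transcription factors held in the cytoplasm by inhibitors such as NFKBIA; once released, it switches on chemokines, interleukins and survival genes, and epithelial and stromal cells use it to call in leukocytes. SREBP factors switch on the enzymes of cholesterol and fatty acid synthesis when membrane sterol is low, and INSIG1 is both their target and their brake. BMP ligands signal through SMAD proteins, and the ID genes, which encode inhibitors of basic helix-loop-helix factors, are among their best known targets.

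Because the genes below include chemokines that neighbour each other on chromosome 4 and yet differ between the libraries, the DNA just before 4 cytokine genes and 2 sterol genes is shown, 5′ to 3′ on the strand of each gene. Each sequence is the 250 bases before the RefSeq start of the gene in GRCh38.p14. In the first 4, capitals mark every match to GGNNTTTCC, a form of the NF-κB site, on either strand. In the last 2, capitals mark ATTGG or its complement, the core of the CCAAT box that the factor NF-Y binds.
CXCL8 (chr4:73740319-73740568, plus strand): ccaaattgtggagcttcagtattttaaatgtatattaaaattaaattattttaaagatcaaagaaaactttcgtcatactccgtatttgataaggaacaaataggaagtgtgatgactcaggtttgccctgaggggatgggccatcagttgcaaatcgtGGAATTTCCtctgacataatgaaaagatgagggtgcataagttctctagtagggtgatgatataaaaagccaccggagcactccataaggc
CXCL2 (chr4:74099196-74099445, minus strand): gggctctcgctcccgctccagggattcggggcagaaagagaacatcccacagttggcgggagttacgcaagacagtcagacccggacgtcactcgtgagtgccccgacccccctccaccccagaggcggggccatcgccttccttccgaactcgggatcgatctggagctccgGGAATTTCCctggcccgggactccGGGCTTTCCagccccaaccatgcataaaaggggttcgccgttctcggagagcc
CXCL1 (chr4:73869143-73869392, plus strand): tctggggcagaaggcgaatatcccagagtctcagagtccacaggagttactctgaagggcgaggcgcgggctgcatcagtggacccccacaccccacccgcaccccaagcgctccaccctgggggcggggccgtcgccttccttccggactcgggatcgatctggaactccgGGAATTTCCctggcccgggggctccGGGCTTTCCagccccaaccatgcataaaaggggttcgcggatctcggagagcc
IL6 (chr7:22726950-22727199, plus strand): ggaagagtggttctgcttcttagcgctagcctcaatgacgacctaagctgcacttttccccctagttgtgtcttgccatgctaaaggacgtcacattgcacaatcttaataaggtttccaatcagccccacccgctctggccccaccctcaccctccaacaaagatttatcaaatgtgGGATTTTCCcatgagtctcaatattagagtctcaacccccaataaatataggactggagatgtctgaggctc
MSMO1 (chr4:165327419-165327668, plus strand): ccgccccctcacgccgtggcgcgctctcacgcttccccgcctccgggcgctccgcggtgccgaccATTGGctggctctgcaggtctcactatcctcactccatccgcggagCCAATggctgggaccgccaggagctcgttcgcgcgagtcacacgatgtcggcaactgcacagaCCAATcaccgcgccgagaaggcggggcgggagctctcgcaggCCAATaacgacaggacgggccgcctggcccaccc
INSIG1 (chr7:155297628-155297877, plus strand): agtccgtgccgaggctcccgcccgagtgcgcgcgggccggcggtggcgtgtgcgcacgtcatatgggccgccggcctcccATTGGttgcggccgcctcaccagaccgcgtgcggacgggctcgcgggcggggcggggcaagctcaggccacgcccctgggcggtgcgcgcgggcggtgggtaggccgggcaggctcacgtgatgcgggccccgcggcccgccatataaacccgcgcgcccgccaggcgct

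The match begins 91 bases before the start in CXCL8 and 72 bases before it in IL6, and CXCL2 and CXCL1 hold 2 matches each, the pair beginning 77 and 53 bases before the start in CXCL2 and 78 and 53 bases in CXCL1. CXCL1 and CXCL2 share an unbroken run of 42 identical bases that holds the second of these matches. Over windows that run from 250 bases before to 50 bases after a start, GGNNTTTCC was found on either strand for 17 of the 23 NF-κB target genes that matched the promoter table, against 7.61% of all 27305 genes in it. ATTGG was found on either strand for 14 of the 16 cholesterol enzymes with a promoter, against 39.7% of all genes. These motifs were picked because of what the genes are known for, and a match is a description of the letters only.

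Of the 14832 genes, 832 (5.61%) were called higher in LOVO spheroids and 683 (4.6%) lower. Between adherent cells 706 (4.76%) and 788 (5.31%) were past 2. Most line differences seen in spheroids were therefore also present between adherent cells: across the genes the differences correlated with r = 0.80 (Pearson) and rho = 0.76 (Spearman), while 78.4% had the same sign (the 2 differences share no library but share the lines and the annotation, and genes are not replicates). Among the higher genes, 433 (2.92%) were alike, within 1 of their value between adherent cells, and 67 (0.452%) were larger between adherent cells. The remaining 332 (2.24%) are called spheroid-weighted below. In 168 of them (1.13%) the line difference was absent between adherent cells, meaning within 1 of 0 there and more than 1 apart from its value in spheroids. It was smaller, by at least 1, in 160 (1.08%) and reversed, past 1 in the other direction, in 4 (0.027%). Among the lower genes, 535 (3.61%) were alike, 39 (0.263%) larger between adherent cells, 55 (0.371%) absent, 52 (0.351%) smaller and 2 (0.0135%) reversed, so that 109 (0.735%) were spheroid-weighted. The spheroid-weighted genes were thus 441 in all (2.97%), and more of them were higher than lower in LOVO spheroids.

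**Figure D1:**
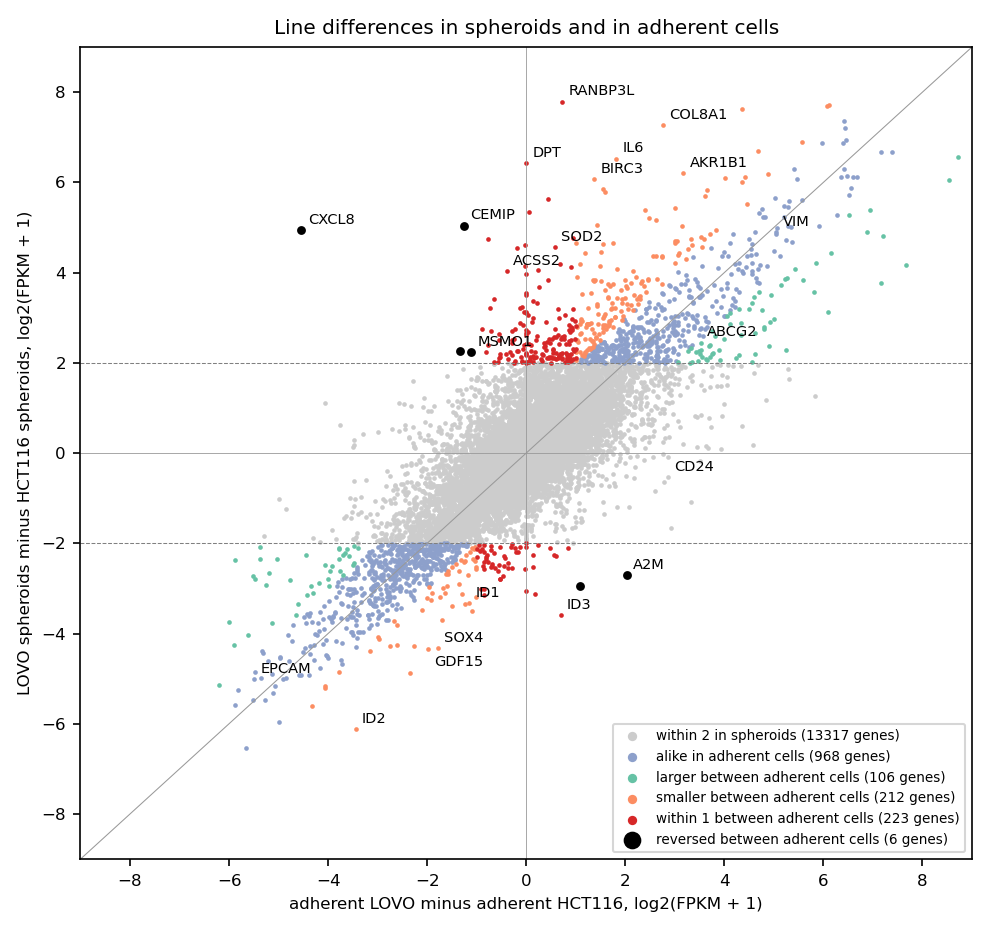
Line differences of 14832 genes, with the difference between adherent cells on the horizontal axis and that between spheroids on the vertical axis, both as log2(FPKM + 1) of LOVO minus HCT116. Each point is a gene, dashed lines mark 2 in either direction and the diagonal marks equal differences; the 6 reversed genes (black) include CXCL8, CEMIP, MSMO1 and A2M, and EPCAM and VIM lie near the diagonal.

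The side that carried the change was not the same in both directions. For 273 of the 332 higher genes the LOVO libraries alone differed by more than 1 between spheroids and adherent cells, for 33 the HCT116 libraries alone, for 4 both, and for 22 neither passed 1. For the 109 lower genes the counts were 23 for LOVO alone, 57 for HCT116 alone, 7 for both and 22 for neither. The genes were selected on values of the same 4 libraries, so the selection partly fixes this split. Shares over all genes were not counted. In genes under 1 FPKM in both adherent libraries, a higher call can come only from LOVO spheroids. Of the 168 higher genes in the absent class, 75 were under 1 FPKM in both adherent libraries, so a line difference there would have been compressed by the pseudocount of 1, and 35 had 3 reads or fewer in both. The pseudocount compresses line differences in the smaller class and among lower genes too, wherever 1 line is low. For IFI44 the log2 ratio of reads was 5.51 in spheroids and 5.43 between adherent cells. For LOX it was 5.94 and 5.31, and in both genes the counting intervals overlapped. For AKR1C1 it was 7.46 and 4.68, with intervals apart. How many genes are of each kind was not counted. Genes close to the threshold show how fine the line is: CSRP1 (2.0) and SAMD9 (2.01) were just inside it and NUP210 (2.0) and NME4 (1.99) just outside, while FOXO3 and AHCY (both -2.01) were inside and TUBB4A (-2.0) and TBC1D16 (-1.99) outside on the lower side.

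CXCL8, the neutrophil chemokine interleukin 8 (chr4:73740506-73743716, plus strand), had the widest change of line difference of all 14832 genes. Its FPKM was 32 adherent and 7.07 in spheroids of HCT116, against 0.417 adherent and 245 in spheroids of LOVO, so it was high in adherent HCT116 cells and in LOVO spheroids and low in adherent LOVO cells. The line difference was 4.93 in spheroids and -4.54 between adherent cells, with counting intervals of the ratio of 4.94 to 5.3 and -7.04 to -5.58. RANBP3L, a nuclear export factor for SMAD proteins (chr5:36248434-36302114, minus strand), followed: it stood at 0.0146 adherent and 0.549 in spheroids of HCT116, against 0.68 adherent and 341 in spheroids of LOVO, and its line differences were 7.79 and 0.73. This gene was under 1 FPKM in 3 libraries and high in LOVO spheroids alone.

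Several of the other genes at the top encode secreted or matrix proteins. Dermatopontin (DPT), a small matrix protein, was listed at 0 in both adherent libraries and had 0.0333 FPKM in HCT116 spheroids and 87.4 in LOVO spheroids, although 54.6% of its exonic bases lie also in exons of another annotated gene. CEMIP, which takes part in the breakdown of hyaluronan, was 2.23 adherent and 4.62 in spheroids of HCT116, against 0.344 adherent and 184 in spheroids of LOVO. TNFAIP6, which binds hyaluronan, was 0.0311 adherent and 0.264 in spheroids of HCT116, against 0.0706 adherent and 50.2 in spheroids of LOVO. These 2 hyaluronan genes were thus both highest in LOVO spheroids, and CEMIP was higher in adherent HCT116 than in adherent LOVO cells. Collagen VIII alpha 1 (COL8A1) stood at 0 adherent and 0.0253 in spheroids of HCT116, against 5.75 adherent and 156 in spheroids of LOVO, and DMBT1, a secreted scavenger receptor protein of mucosal surfaces, at 0.286 adherent and 0.184 in spheroids of HCT116, against 0.131 adherent and 26.6 in spheroids of LOVO. In each of them the LOVO spheroid library was the one that stood apart.

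Of the remaining genes among the 15 with the widest change, ARNT2, a partner of PAS domain transcription factors, was 1.72 adherent and 1.48 in spheroids of HCT116, against 0.598 adherent and 65.4 in spheroids of LOVO. KLRC1, an inhibitory receptor of natural killer cells, had 23.5 FPKM in LOVO spheroids and at most 0.0182 elsewhere. KLRC1 has a close paralogue, KLRC2, and reads can be split between them. Summed over both genes the reads were 29 adherent and 57 in spheroids of HCT116, against 1 adherent and 1908 in spheroids of LOVO. LAMP3, a lysosomal membrane protein, was 5.12 adherent and 3.85 in spheroids of HCT116, against 2.88 adherent and 50.5 in spheroids of LOVO, with line differences of 3.41 and -0.66. The other 5 of the 15 (BIRC3, IL6, PTGS2, IL33 and ACSS2) belong to the cytokine and lipid genes.

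Of the lists read, the NF-κB targets had the most spheroid-weighted members. Of 28 NF-κB targets and chemokines, 24 passed the filter on low values, 12 were higher in LOVO spheroids (against 5.61% of all genes) and 11 of these 12 had an absent, smaller or reversed difference between adherent cells (against 2.24%). The median line difference over all 28 was 1.44 in spheroids and 0.25 between adherent cells, where the medians over all genes compared were 0.04 and 0.05. In 26 of the 28 the difference was higher in spheroids, and in 21 by more than 1. The median change of the members was 1.65, against -0.02 over all genes compared. The share of all genes with such changes was not counted, here or for the lists below. For IL6, CCL5, CCL2, IL32 and IL1B the counting intervals of the ratio of reads in spheroids and between adherent cells overlapped. HCT116 had few reads of these genes, so their line differences depend on the pseudocount. For CXCL8, CXCL2, BIRC3 and ICAM1 the intervals were apart. LCN2 was the member called higher with an alike difference (2.4 and 2.36), and CXCL1 and PLAU were called lower with alike differences (-2.8 and -3.07 for CXCL1 and -3.88 and -3.63 for PLAU).

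Among the ligands, IL6 had an FPKM of 0 adherent and 0.115 in spheroids of HCT116, against 2.53 adherent and 102 in spheroids of LOVO, and its line difference of 6.53 in spheroids was the highest of the list. CXCL2, a neutrophil chemokine like CXCL8, was 1.77 adherent and 0.714 in spheroids of HCT116, against 8.36 adherent and 42.5 in spheroids of LOVO. Their neighbour CXCL1 was 7.42 adherent and 6.25 in spheroids of HCT116, against 0 adherent and 0.0383 in spheroids of LOVO, so of 3 chemokine genes with GGAATTTCC in the sequences shown above, 2 were highest in LOVO spheroids and 1 was nearly silent there. CXCL3 stood between them, at 1.64 adherent and 0.671 in spheroids of HCT116, against 0.754 adherent and 2.67 in spheroids of LOVO. The CC chemokines CCL5 and CCL2, which attract T cells and monocytes, had line differences of 6.09 in spheroids and 4.01 between adherent cells for CCL5 and 3.53 in spheroids and 1.13 between adherent cells for CCL2. CCL5 was 0.0973 adherent and 0.118 in spheroids of HCT116, against 16.7 adherent and 75.4 in spheroids of LOVO, and CCL2 was 0.0988 adherent and 0.21 in spheroids of HCT116, against 1.4 adherent and 12.9 in spheroids of LOVO. Both were already higher in adherent LOVO than in adherent HCT116 cells.

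IL33, an alarmin of the interleukin 1 family, was 0.0151 adherent and 0.0366 in spheroids of HCT116, against 0 adherent and 17.4 in spheroids of LOVO. IL1B, the classical interleukin 1, was lower in level, at 0.0317 adherent and 0.0192 in spheroids of HCT116, against 0.36 adherent and 3.97 in spheroids of LOVO, and IL32 stood at 0.0612 adherent and 0.204 in spheroids of HCT116, against 1.29 adherent and 6.64 in spheroids of LOVO. In all 3 the LOVO spheroid library was the highest. LIF, a ligand of the IL6 family, was lower in LOVO in both growth forms, with a narrower gap in spheroids: its FPKM was 19 adherent and 15.4 in spheroids of HCT116, against 3.41 adherent and 9.27 in spheroids of LOVO, and its line difference was -0.68 in spheroids and -2.18 between adherent cells.

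Of the intracellular and enzyme products, BIRC3, a ubiquitin ligase that protects cells from death by TNF, had 4.12 adherent and 4.17 in spheroids of HCT116, against 12.3 adherent and 349 in spheroids of LOVO. The line difference of BIRC3 was 6.08 in spheroids and 1.37 between adherent cells, with counting intervals of 6.26 to 6.51 and 1.44 to 1.71. SOD2, the mitochondrial superoxide dismutase, was 3.92 adherent and 4.1 in spheroids of HCT116, against 6.37 adherent and 119.5 in spheroids of LOVO, with a line difference of 4.56 in spheroids and 0.58 between adherent cells. The prostaglandin synthase PTGS2 (cyclooxygenase 2) stood at 0.717 adherent and 0.825 in spheroids of HCT116, against 4.18 adherent and 99.1 in spheroids of LOVO. ICAM1, the adhesion molecule that leukocytes bind, was 1.07 adherent and 2.09 in spheroids of HCT116, against 2.03 adherent and 14.2 in spheroids of LOVO, and TNFAIP2 was 13.7 adherent and 20.4 in spheroids of HCT116, against 27 adherent and 90.4 in spheroids of LOVO. The NF-κB subunits and inhibitors themselves differed less: in spheroids the line difference was 1.46 for NFKBIA, 1.2 for NFKB1, 0.16 for NFKB2, 0.29 for RELB and 1.42 for TNFAIP3, and none was past 2. Between adherent cells NFKB2 and RELB were lower in LOVO, at -1.43 and -1.99.

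**Figure D2:**
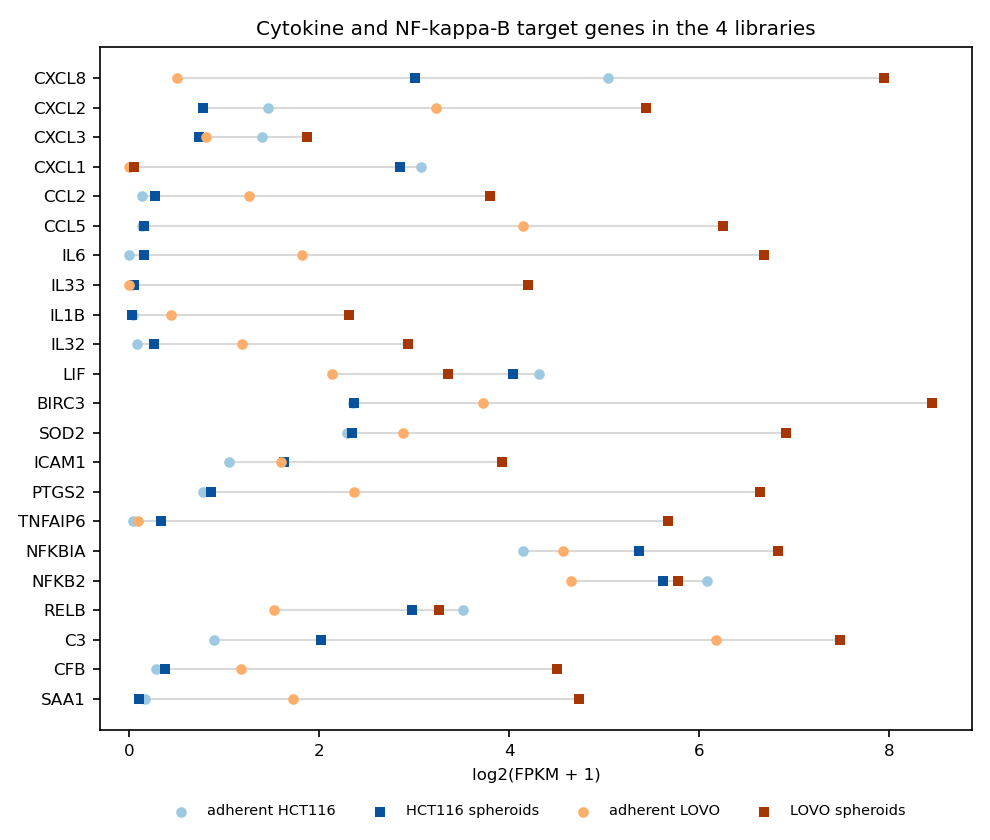
FPKM of 22 cytokine, NF-κB target and acute phase genes on a log2(FPKM + 1) axis, with circles for adherent cells and squares for spheroids, blue for HCT116 and orange to brown for LOVO, 1 library each. The square of LOVO spheroids lies farthest right for CXCL8, CXCL2, IL6, BIRC3, SOD2 and PTGS2 but near the left end for CXCL1, and for CXCL8 the adherent HCT116 circle lies far to the right of the adherent LOVO circle.

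Acute phase and complement genes, which the liver and inflamed epithelia make in response to IL6 and interleukin 1, were looked at after their values had been seen. SAA1 (serum amyloid A) was 0.123 adherent and 0.0748 in spheroids of HCT116, against 2.31 adherent and 25.7 in spheroids of LOVO. CFB, complement factor B, stood at 0.216 adherent and 0.298 in spheroids of HCT116, against 1.26 adherent and 21.7 in spheroids of LOVO, with 45.5% of its exonic bases shared with other genes. The complement C4 genes C4A and C4B are nearly identical, and their reads summed to 15 and 17 in the adherent and spheroid libraries of HCT116 and to 456 and 4964 in those of LOVO. C3, the central complement protein, was 0.866 adherent and 3.04 in spheroids of HCT116, against 71.6 adherent and 177 in spheroids of LOVO, and its line differences, 5.46 and 5.28, were alike. LRG1 was 1.05 adherent and 1.18 in spheroids of HCT116, against 1.37 adherent and 21 in spheroids of LOVO, and the regulators ZC3H12A and CEBPD had line differences of 2.39 in spheroids and 0.09 between adherent cells for ZC3H12A and 4.71 in spheroids and 3.0 between adherent cells for CEBPD.

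Interferon-stimulated genes were higher in LOVO in both growth forms. Of 33 such genes 19 were called higher in spheroids (background 5.61%). Of these, 12 had an alike difference (2.92% of all genes) and 7 a smaller one between adherent cells (1.08%). The list's median was 2.64 in spheroids and 2.15 between adherent cells. IFITM1, a membrane protein that blocks virus entry, was 1.18 adherent and 2.54 in spheroids of HCT116, against 149 adherent and 743 in spheroids of LOVO. IFI6 was 40.5 adherent and 68.1 in spheroids of HCT116, against 479 adherent and 1913 in spheroids of LOVO, OAS2 was 0.047 adherent and 0.038 in spheroids of HCT116, against 3.66 adherent and 16.1 in spheroids of LOVO and ISG15, a ubiquitin-like modifier, was 118 adherent and 80.6 in spheroids of HCT116, against 297 adherent and 548 in spheroids of LOVO. All 4 were higher in LOVO than in HCT116 whatever the growth form. For IFITM1, IFI6 and ISG15 the ratio of reads was higher in spheroids, with counting intervals apart. For OAS2 the intervals overlapped (7.37 to 10.6 in spheroids and 5.15 to 7.74 between adherent cells). For MHC class I antigen presentation, 8 of 16 genes were called higher (5.61% of all genes), 4 alike (2.92%) and 4 spheroid-weighted (2.24%), with medians of 1.92 and 0.80. The 4 were HLA-F (2.01 and -0.56), the peptide loading factor TAPBP (2.42 and 0.67), the peptide transporter TAP1 (2.42 and 1.37) and the immunoproteasome subunit PSMB9 (2.21 and 0.68, spheroids first).

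Cholesterol synthesis was the second group. Of the 12 enzymes from acetyl-CoA to lanosterol, 3 were called higher in LOVO spheroids and all 3 were spheroid-weighted, and of the 9 enzymes from lanosterol to cholesterol the counts were 5 and 5 (5.61% and 2.24% of all genes). The median line difference was 1.13 in spheroids against -0.03 between adherent cells for the first list and 2.08 against 0.52 for the second. The change of the line difference exceeded 1 in 10 of the 12 and in 7 of the 9. Its median was 1.53 in the first list and 1.85 in the second, against -0.02 over all genes compared. Summed FPKM of the 12 was 185 and 251 in adherent cells and spheroids of HCT116, and 210.4 and 763 in those of LOVO.

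In the order of the pathway, MVD, the decarboxylase that makes isopentenyl diphosphate, was 20.9 adherent and 26.9 in spheroids of HCT116, against 8.11 adherent and 101 in spheroids of LOVO, and IDI1, the next enzyme, was 13.3 adherent and 19.4 in spheroids of HCT116, against 22.1 adherent and 116 in spheroids of LOVO. FDPS, which makes farnesyl diphosphate, stood at 13.2 adherent and 16.6 in spheroids of HCT116, against 42.2 adherent and 148 in spheroids of LOVO, and SQLE, which oxidises squalene, at 20.5 adherent and 32 in spheroids of HCT116, against 11.3 adherent and 71.3 in spheroids of LOVO. Of these 4, IDI1 and FDPS were past 2. After lanosterol, MSMO1, the sterol C4 methyl oxidase (chr4:165327623-165343160, plus strand), was 26.4 adherent and 54.5 in spheroids of HCT116, against 11.7 adherent and 261 in spheroids of LOVO, a line difference of 2.24 in spheroids and -1.11 between adherent cells, with counting intervals of 2.2 to 2.32 and -1.31 to -1.04. HSD17B7, the next ketoreductase, was 4.2 adherent and 4.45 in spheroids of HCT116, against 3.64 adherent and 25 in spheroids of LOVO. EBP, the sterol isomerase, was 14.2 adherent and 12.2 in spheroids of HCT116, against 59.4 adherent and 188 in spheroids of LOVO, and DHCR7, which makes cholesterol from 7-dehydrocholesterol, was 32.6 adherent and 44.9 in spheroids of HCT116, against 34.2 adherent and 194 in spheroids of LOVO. HSD17B7 and DHCR7 had almost no line difference between adherent cells (-0.16 and 0.07), whereas EBP was already 1.99 higher there.

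Of the 14 genes of LDL uptake and sterol sensing, 2 were called higher and 1 lower (5.61% and 4.6% of all genes). INSIG1 alone was spheroid-weighted (2.24%), at 25.9 adherent and 37.9 in spheroids of HCT116, against 34.3 adherent and 292 in spheroids of LOVO. The transcription factors SREBF2 and SREBF1 differed little in spheroids (0.20 and 0.02). For fatty acid synthesis and desaturation the list median was 1.45 in spheroids and 0.07 between adherent cells, with 2 of 14 called higher (5.61% of all genes). The change was above 1 in 7, with a median of 1.00 (-0.02 over all genes compared). ACSS2, which makes acetyl-CoA from acetate, was 9.17 adherent and 10.1 in spheroids of HCT116, against 6.74 adherent and 181 in spheroids of LOVO, with a line difference of 4.04 in spheroids and -0.39 between adherent cells. FASN, the fatty acid synthase, stood at 93.3 adherent and 123 in spheroids of HCT116, against 54 adherent and 359.5 in spheroids of LOVO, and ME1, the malic enzyme that supplies NADPH, at 15.3 adherent and 15.3 in spheroids of HCT116, against 10.4 adherent and 48.6 in spheroids of LOVO. FASN and ME1 were lower in LOVO among adherent cells and higher among spheroids without passing 2.

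Several enzymes and transporters outside these groups were spheroid-weighted as well. Among 21 NRF2 target enzymes, 6 were called higher (5.61% of all genes) and 4 of them spheroid-weighted (2.24%), all aldo-keto reductases, while the list medians were close (0.56 and 0.58). AKR1B1, which reduces glucose to sorbitol, was 17.3 adherent and 45.4 in spheroids of HCT116, against 165 adherent and 3424 in spheroids of LOVO, with line differences of 6.21 and 3.17. AKR1B10 was 0.703 adherent and 0.683 in spheroids of HCT116, against 2.62 adherent and 29.8 in spheroids of LOVO, and the near-identical AKR1C1 and AKR1C2, between which reads may be split, had line differences of 5.2 and 2.48 and 4.62 and 3.35. Other NRF2 targets had lower values, NQO1 -0.22 and -0.01 and HMOX1 -0.27 and -2.33. Of the 7 osmolyte genes of NFAT5 (median 0.83 and 0.43), AKR1B1 and the betaine transporter SLC6A12 were called higher (5.61% of all genes). Both were spheroid-weighted (2.24%), with SLC6A12 at 0.102 adherent and 2.09 in spheroids of HCT116, against 0.486 adherent and 43 in spheroids of LOVO. The inositol transporter SLC5A3, whose gene lies within MRPS6, was 5.47 adherent and 43 in spheroids of HCT116, against 4.35 adherent and 108 in spheroids of LOVO.

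Of the 20 hypoxia targets outside glycolysis, 4 were higher and 1 lower (5.61% and 4.6% of all genes, medians 0.19 and -0.29). CA9, a surface carbonic anhydrase, was 0.47 adherent and 0.535 in spheroids of HCT116, against 7.98 adherent and 54.2 in spheroids of LOVO, LOX, which crosslinks collagen, was 0.133 adherent and 0.279 in spheroids of HCT116, against 5.26 adherent and 17.2 in spheroids of LOVO, and the transcription factor BHLHE40 was 20.0 adherent and 29.9 in spheroids of HCT116, against 35.7 adherent and 144 in spheroids of LOVO. ANKRD37 was called lower, and ANGPTL4, a lipase inhibitor, went from a line difference of -3.0 between adherent cells to 0.46 in spheroids. The 22 glycolysis genes held none past 2 in spheroids (5.61% of all genes were higher and 4.6% lower). Their median was -0.08 in spheroids, a sign that depends on the scaling, and 0.14 between adherent cells. Heat shock proteins were mixed (1 of 12 called higher, against 5.61% of all genes). HSPA1A and HSPA1B are nearly identical, and their summed reads gave a log2 ratio of LOVO to HCT116 of 1.78 in spheroids (counting interval 1.71 to 1.86) and -2.01 between adherent cells (-2.09 to -1.92).

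The line difference of most cell cycle genes was higher in spheroids than between adherent cells. Of 30 genes of G2/M and mitosis, 4 were called higher (5.61% of all genes) and none lower (4.6%), and the medians were 1.38 and 0.22. In 29 the line difference was higher in spheroids, in 16 by more than 1. The median change was 1.10, against -0.02 over all genes compared. The summed FPKM of the list was 861 and 887 in adherent HCT116 and LOVO cells and 188 and 473 in the spheroids, so it was lower in the spheroids of both lines and lowest in HCT116 spheroids. AURKB, a mitotic kinase, was 26.5 adherent and 3.27 in spheroids of HCT116, against 26.4 adherent and 21.6 in spheroids of LOVO, and its line difference of -0.01 between adherent cells became 2.41 in spheroids. CCNB2, a cyclin of mitotic entry, was 22 adherent and 3.68 in spheroids of HCT116, against 35.2 adherent and 19.4 in spheroids of LOVO, and TOP2A was 32.6 adherent and 8.51 in spheroids of HCT116, against 70.5 adherent and 44 in spheroids of LOVO. CDC20, the activator of the anaphase-promoting complex, was 168 adherent and 18 in spheroids of HCT116, against 43.8 adherent and 21.9 in spheroids of LOVO.

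Of 32 DNA replication genes 15 were called higher (5.61% of all genes), 9 alike (2.92%) and 6 spheroid-weighted (2.24%), with none lower (medians 1.97 and 1.36). CDT1, which licenses replication origins, was 33.1 adherent and 6.42 in spheroids of HCT116, against 40.7 adherent and 30.3 in spheroids of LOVO, and CDC6 was 21.1 adherent and 4.63 in spheroids of HCT116, against 36.9 adherent and 21.7 in spheroids of LOVO. E2F1, the factor that switches on S phase genes, was 11.1 adherent and 3.83 in spheroids of HCT116, against 32.1 adherent and 39.7 in spheroids of LOVO, and FEN1 was 28.1 adherent and 10.2 in spheroids of HCT116, against 84.5 adherent and 79.5 in spheroids of LOVO. Replication-dependent histones had 13 of 30 members called higher (5.61% of all genes), 6 of them spheroid-weighted (2.24%), with medians of 1.79 and 1.43, and their mRNAs lack poly(A) tails, so their recovery depends on the library kit. HIST1H3B had 3.12 and 19.3 FPKM in adherent cells and spheroids of LOVO and at most 0.477 in HCT116, where it had 4 reads in adherent cells and 1 in spheroids. Of the 6, the counting intervals in spheroids and between adherent cells were apart for HIST1H2AG alone.

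The ID family was among the lower genes. ID1 had an FPKM of 218 adherent and 359.6 in spheroids of HCT116, against 97.9 adherent and 34.9 in spheroids of LOVO, ID2 was 54.8 adherent and 91.7 in spheroids of HCT116, against 4.12 adherent and 0.338 in spheroids of LOVO, and ID3 (chr1:23557918-23559794, minus strand) was 76.5 adherent and 107 in spheroids of HCT116, against 125 adherent and 7.97 in spheroids of LOVO. In all 3 the HCT116 spheroids were above the adherent HCT116 cells and the LOVO spheroids below the adherent LOVO cells. The line difference was -3.33 in spheroids and -1.15 between adherent cells for ID1, -6.11 in spheroids and -3.45 between adherent cells for ID2 and -3.59 in spheroids and 0.70 between adherent cells for ID3. The list of 22 TGF-β and BMP genes held 5 lower genes (4.6% of all genes), 4 of them spheroid-weighted (0.735%), namely ID1, ID2, ID3 and BMP4. It also held 4 higher genes (5.61%), of which TGFB3 (2.92 and 1.11) was spheroid-weighted (2.24%), with a median of -0.13 in spheroids and -0.01 between adherent cells. The ligands BMP4 and BMP2 were split between the lines. BMP4 was 69.4 adherent and 119 in spheroids of HCT116, against 2.51 adherent and 1.45 in spheroids of LOVO, whereas BMP2 was 0.0136 adherent and 0.0165 in spheroids of HCT116, against 206 adherent and 17.3 in spheroids of LOVO. The inhibitory SMADs SMAD6 and SMAD7, which BMP signalling also switches on, had line differences of -0.03 and 1.52 and -0.58 and 0.65, and BAMBI, a decoy receptor, had -1.27 and 1.17.

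Of 23 WNT target and feedback genes, 10 were lower in LOVO spheroids (4.6% of all genes), of which 7 were alike (3.61%) and 3 spheroid-weighted (0.735%). Between adherent cells 7 were past -2 (5.31%). The median was -1.81 in spheroids against -0.29 between adherent cells, but the median change of the members was only -0.21. In 7 of the 23 the line difference was lower in spheroids by more than 1, and 6 were under 1 FPKM in every library. NOTUM, an enzyme that inactivates WNT ligands, was 5.8 adherent and 25.5 in spheroids of HCT116, against 7.07 adherent and 5.45 in spheroids of LOVO, with line differences of -2.04 and 0.25. The WNT antagonist DKK1 was 189.9 adherent and 133 in spheroids of HCT116, against 30.2 adherent and 5.97 in spheroids of LOVO, and its relative DKK4 was 0.22 adherent and 3.46 in spheroids of HCT116, against 0 adherent and 0.111 in spheroids of LOVO. NKD2 and ZNRF3, negative regulators of the pathway, were higher in LOVO among adherent cells and lower among spheroids (-1.34 and 1.57 and -1.41 and 0.98) without passing 2. AXIN2, a general target, was -2.9 and -2.01 and so was called with an alike difference.

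SOX4, a transcription factor of progenitor cells, was 42.8 adherent and 213 in spheroids of HCT116, against 11.7 adherent and 9.67 in spheroids of LOVO, so its level was higher in HCT116 spheroids than in the other 3 libraries. GDF15, a stress cytokine and p53 target, was 232 adherent and 214 in spheroids of HCT116, against 57.7 adherent and 9.57 in spheroids of LOVO, and here the LOVO spheroids were the low library. Of the 24 p53 targets in the list 7 were called lower (4.6% of all genes), 5 of them alike (3.61%), 1 larger between adherent cells (0.263%) and 1 (GDF15) spheroid-weighted (0.735%), with medians of -1.03 and -0.87. KRT23 was 4.31 adherent and 29.2 in spheroids of HCT116, against 0.0384 adherent and 0.0343 in spheroids of LOVO, and KRT20, a keratin of mature colon epithelium, was 0.93 adherent and 7.45 in spheroids of HCT116, against 0.0302 adherent and 0.0538 in spheroids of LOVO. Both keratins were near 0 in both LOVO libraries and higher in the spheroids than in the adherent cells of HCT116. KRT23 had 2 reads in each LOVO library. For both keratins the counting intervals in spheroids and between adherent cells overlapped (-12.8 to -7.88 and -9.86 to -4.94 for KRT23). Of 32 epithelial junction and keratin genes 13 were lower in LOVO spheroids (4.6% of all genes), KRT20 being the spheroid-weighted one (0.735%), and 2 were higher (5.61%), CLDN1 (4.36 and 4.46) and KRT7 (2.97 and 5.01). The list medians were -1.41 and -1.39.

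The other lower genes with the widest change have varied roles. IRS1, the adaptor of the insulin and IGF1 receptors, was 10.4 adherent and 24.4 in spheroids of HCT116, against 3.82 adherent and 1.5 in spheroids of LOVO, and MAN1A1, a Golgi mannosidase, was 42.4 adherent and 81.9 in spheroids of HCT116, against 8.02 adherent and 3.26 in spheroids of LOVO. The netrin receptor UNC5B was 21.1 adherent and 23.4 in spheroids of HCT116, against 9.32 adherent and 1.16 in spheroids of LOVO, and USH1C, a scaffold protein of microvilli, was 10.0 adherent and 11.1 in spheroids of HCT116, against 4.47 adherent and 0.314 in spheroids of LOVO. In IRS1 and MAN1A1 the lines moved apart from both sides, while in UNC5B and USH1C the HCT116 values hardly differed and the LOVO spheroids were lowest. SESN3, an inhibitor of mTORC1, was 4.48 adherent and 11.5 in spheroids of HCT116, against 2.8 adherent and 0.794 in spheroids of LOVO. The arrestin-like ARRDC4 was equal between adherent cells (1.96 and 1.93) and 24.4 and 3.3 in HCT116 and LOVO spheroids, although its close relative TXNIP was 7.7 and 6.06, higher in LOVO in both. ZNF704 had line differences of -2.47 and -0.55 and ANKRD37 of -2.46 and -0.69.

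**Figure D3:**
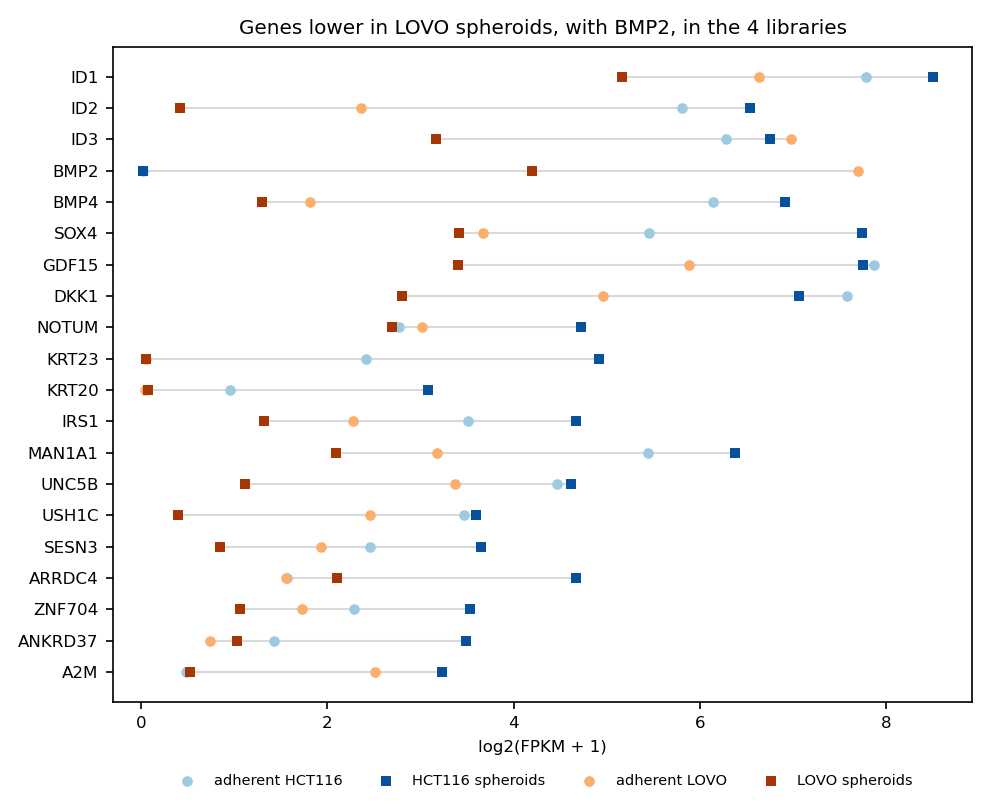
FPKM of 19 genes lower in LOVO spheroids, and of BMP2 for contrast, on a log2(FPKM + 1) axis, with circles for adherent cells, squares for spheroids, blue for HCT116 and orange to brown for LOVO. ID1, ID2 and ID3 have the HCT116 spheroid square to the right of the adherent circle and the LOVO spheroid square to the left of its own, and BMP2 is near 0 in both HCT116 libraries.

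Apart from CXCL8, CEMIP and MSMO1, 3 called genes were reversed. A2M, a protease inhibitor of plasma (chr12:9067664-9116229, minus strand), was 0.40 adherent and 8.41 in spheroids of HCT116, against 4.72 adherent and 0.436 in spheroids of LOVO, so that it was high in HCT116 spheroids and in adherent LOVO cells, with line differences of -2.71 and 2.03 and counting intervals of -4.69 to -3.88 and 3.15 to 4.0. CDC42EP5, an effector of the GTPase CDC42, was 2.61 adherent and 2.77 in spheroids of HCT116, against 0.432 adherent and 17.1 in spheroids of LOVO, with 2.27 and -1.33. RNU6-652P, a pseudogene of the U6 spliceosomal RNA, was -2.94 and 1.08 on few reads. Without the threshold of 2, 48 of the 14832 genes had differences of opposite sign that were past 1 in both growth forms.

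In other groups the median gap between the lines was narrower in spheroids, though not for every member. For 22 ERK feedback and immediate early genes the median line difference was -2.29 between adherent cells and -0.69 in spheroids, and 13 and 5 genes were past -2 (5.31% and 4.6% of all genes). In the other direction 1 gene was past 2 between adherent cells (4.76%) and 2 in spheroids (5.61%), DUSP1 (3.86 in spheroids and 2.45 between adherent cells), which was spheroid-weighted, and SPRY2 (2.23 in spheroids and 1.37 between adherent cells). EGR1, a serum-induced transcription factor, was 196 adherent and 26.7 in spheroids of HCT116, against 4.03 adherent and 6.68 in spheroids of LOVO, and JUNB was 151 adherent and 68.4 in spheroids of HCT116, against 26.9 adherent and 106 in spheroids of LOVO. IER3 went from -4.06 to 1.11, with an FPKM of 29.5 adherent and 882 in spheroids of LOVO. In the EGF family, with 3 of 14 lower and 1 higher (4.6% and 5.61% of all genes; medians -0.18 in spheroids, which reaches 0.00 under another scaling, and -0.45), the ligand AREG was 332 adherent and 223 in spheroids of HCT116, against 6.33 adherent and 33 in spheroids of LOVO and EREG was 36.1 adherent and 32.9 in spheroids of HCT116, against 8.44 adherent and 63.9 in spheroids of LOVO. The higher member was the ligand EPGN, which was spheroid-weighted, with a line difference of 3.7 in spheroids and 2.37 between adherent cells; at a pseudocount of 0.01 it was instead the smaller in spheroids.

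ER chaperones and unfolded protein response genes had a median of 0.67 in spheroids and -0.57 between adherent cells. None of the 20 was called in spheroids (5.61% of all genes were higher and 4.6% lower), and 11 changed by more than 1. The median change was 1.10, against -0.02 over all genes compared. HSPA5, the main ER chaperone BiP, was 1073 adherent and 219 in spheroids of HCT116, against 243 adherent and 281 in spheroids of LOVO, and PDIA4 was 303 adherent and 100.3 in spheroids of HCT116, against 67.1 adherent and 136 in spheroids of LOVO. The adherent HCT116 library was the high one in both. ATF4 targets of the amino acid stress response went the other way, with a median of 0.24 in spheroids and 1.24 between adherent cells, and 20 of 38 were lower in the line difference by more than 1. Their median change was -1.03. CTH, the cystathionine lyase, was 8.58 adherent and 14 in spheroids of HCT116, against 109 adherent and 12.3 in spheroids of LOVO, and PSPH, which makes serine, was 13.8 adherent and 7.78 in spheroids of HCT116, against 76.2 adherent and 6.95 in spheroids of LOVO. Among 11 metallothionein and zinc genes none was past 2 in either direction in spheroids (5.61% and 4.6% of all genes). Between adherent cells 3 were past -2 (5.31%). Only 6 of the 11 passed the filter on low values, and 5 were under 1 FPKM in every library. MT2A, among the 3, was 507 adherent and 150.5 in spheroids of HCT116, against 85 adherent and 325 in spheroids of LOVO.

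Of the stem-like markers that the study names, 1 of 9 was higher and 2 lower in LOVO spheroids (5.61% and 4.6% of all genes), and none was spheroid-weighted (medians -0.66 and -0.39). The drug exporter ABCG2 was 0.691 adherent and 0.897 in spheroids of HCT116, against 18.5 adherent and 9.36 in spheroids of LOVO, and its line difference was larger between adherent cells (3.53) than in spheroids (2.45). CD24 went from 2.87 to -0.54, with an FPKM of 88.6 adherent and 23.4 in spheroids of LOVO. CD44 was 45.8 adherent and 54 in spheroids of HCT116, against 11.6 adherent and 33.4 in spheroids of LOVO, PROM1 (CD133) was -2.56 and -2.5, and SOX2 and LGR5 were under 1 FPKM everywhere. WDR5, a subunit of histone H3K4 methyltransferase complexes, had line differences of 0.32 and 0.44 and none of its 3 partners was past 1, while TOX3 had at most 0.0443 FPKM in the 4 libraries and so gave no difference at this depth. Of 28 ABC transporters 2 were higher, near the 5.61% of all genes (medians 0.12 and 0.20), and of 18 aldehyde dehydrogenases 1 was higher and 1 lower, near the 5.61% and 4.6% of all genes (medians -0.06, of either sign under other scalings, and 0.07).

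The genes that differed alike in both growth forms were led by others. SPINK13, MARCOL, SMOC1, HTRA1 and PRSS21 had the highest such values, with SPINK13 at 0.125 adherent and 0.101 in spheroids of HCT116, against 95.1 adherent and 179 in spheroids of LOVO. KRT19, AKAP12, SOX9, WNT16 and IGFBP2 were the lowest, with AKAP12, a kinase anchoring protein, at 233 adherent and 142 in spheroids of HCT116, against 6.33 adherent and 1.29 in spheroids of LOVO. Of 24 mesenchymal genes 1 was lower (4.6% of all genes) and 8 were higher (5.61%), and the medians were 0.65 and 0.55. Of the 8, TWIST2, TNC and COL3A1 were spheroid-weighted (2.24%). The change of COL3A1 turned round at a pseudocount of 0.01. TWIST2 was listed at 0 in both HCT116 libraries, so the size of its line difference depends on the pseudocount in both growth forms. Tenascin C (TNC) was 0.056 adherent and 0.0741 in spheroids of HCT116, against 0.0752 adherent and 5.92 in spheroids of LOVO, and TWIST2 was 0 adherent and 0 in spheroids of HCT116, against 7.48 adherent and 20.5 in spheroids of LOVO. Among 34 intestinal factors and differentiation genes 22 were under 1 FPKM in every library, and MUC1, a membrane mucin of many epithelia, was the spheroid-weighted one, at 0.25 adherent and 0.517 in spheroids of HCT116, against 14.2 adherent and 77.8 in spheroids of LOVO.

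For the other lists the counts were small, where 5.61% of all genes were higher and 4.6% lower. Of 20 integrins and laminins 2 were higher and 1 lower, with ITGA1 at 0.322 adherent and 0.503 in spheroids of HCT116, against 7.88 adherent and 29.3 in spheroids of LOVO and ITGB8 at 2.03 and 0.91, and ITGA2 went from -3.23 between adherent cells to -0.59 in spheroids. Of 14 S100 genes 4 were higher and 1 lower (medians 0.52 and 0.07), the spheroid-weighted ones being S100A9 (3.0 and 0.13), S100A11 (2.53 and 1.18) and S100A3 (2.1 and 0.72). The 25 YAP and serum response targets had 1 higher gene, CYR61 (3.55 and 1.31), and 1 lower. NOTCH genes had 4 of 15 lower, all alike. HOX genes had 2 higher and 1 lower of 39, HOXA9 (-3.8 and -2.61) being spheroid-weighted, and lysosome and autophagy genes had 4 higher and 1 lower of 22, NEU1 (2.13 and -0.54) being spheroid-weighted.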

How the data were processed

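The authors deposited 1 table of FPKM values for 58735 genes in 4 libraries, made from total RNA with a SMARTER mRNA-Seq kit. Aligner and counter are not given in the sources used here. The labels name mouse builds (GRCm38, mm10), but all 58735 gene identifiers are human and in GENCODE 29, 58690 of them with the same coordinates, on GRCh38. Multiplied by gene length, 100% of values above 0 gave whole reads within 0.01, which were used for depth and counting intervals. The strand setting of the count is not stated.

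Line differences were computed on log2(FPKM + 1), which understates low genes, with a threshold of 2. The study's own screen joined a log fold change of 2 to a P value from edgeR, which was not used here. In 1 library per condition no test was possible. Scripts ran in Python 3.11.15 with numpy 2.4.6, pandas 2.3.3, scipy 1.17.1 and matplotlib 3.10.9. The calls were run on simulated data with large changes planted in well expressed genes of the LOVO spheroid library and counting error only. That run says nothing of low genes, of the smaller and reversed classes or of variation between cultures. Genes, 41 lists and motifs were chosen with earlier results of these data known. Genes named were the 15 protein-coding spheroid-weighted genes per direction with the widest change and a highest FPKM of at least 10, in each list the spheroid-weighted members and up to 4 with the widest change, the 5 alike genes per direction with the largest difference, and the markers; acute phase and complement genes, TXNIP, A2M, CDC42EP5 and members given to describe a list were named after their values were seen. Alternatives were 2 other pseudocounts, 2 filters, 4 scalings, protein-coding genes and other thresholds. Promoter sequences are from RefSeq (GRCh38.p14), whose table matched 23 of 28 NF-κB targets. Some genes of the lists are not reported here.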

Additional observations from a re-analysis of the deposited data

Results flagged for a closer look

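In 6 called genes the LOVO library lay on opposite sides of the HCT116 library in spheroids and in adherent cells, with both differences past 1. The line difference was 4.93 in spheroids and -4.54 between adherent cells for CXCL8, 5.04 and -1.26 for CEMIP, 2.24 and -1.11 for MSMO1, and 2.27 and -1.33 for CDC42EP5. It was -2.71 and 2.03 for A2M, and -2.94 and 1.08 for RNU6-652P, whose value rests on few reads. With 1 library per condition none of these differences between growth forms was tested.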

How the results depend on the processing

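The limits are 1 library per condition, growth form, medium and drug that changed together, and a gap in marker genes between the libraries labelled LOVO and their label. No paired analysis was possible because the groups share only 1 replicate number and no test was run. The counts of genes moved with the threshold, the pseudocount and the unit. With a pseudocount of 0.1 in place of 1, 1486 genes were higher (272 absent, 347 smaller and 43 reversed between adherent cells) and 1338 lower (102, 171 and 19). With 0.01 the counts were 1575 (260, 368 and 66) and 1409 (114, 199 and 22). After rescaling to TPM they were 2107 (594, 410 and 54) and 1560 (239, 178 and 29), and the median line difference of all genes was 0.27 in spheroids and 0.11 between adherent cells, against 0.04 and 0.05 as deposited. At a mean FPKM of at least 5, 89 higher genes were absent, and 316 genes were lower, 15 absent, 32 smaller and 0 reversed. With library sizes taken from the reads on genes, 1 lower gene was reversed. Among protein-coding genes only, 99 higher and 22 lower genes were absent and 1 lower gene reversed. At a threshold of 1, 2679 genes were higher (596 absent, 33 reversed) and 2271 lower (235 and 15). Counting as absent only differences within 0.5 between adherent cells left 83 higher and 22 lower genes. The causes were not tested. Of 123 named spheroid-weighted genes, 119 kept the sign of their change of line difference under all 6 pseudocount and scaling alternatives, and the change became -1.77 for COL3A1, -0.54 for EPGN, -2.14 for HIST1H2AE and -0.59 for TNFSF10 at a pseudocount of 0.01. A kept sign does not mean that the ratio of reads changed. For KRT20 the log2 ratio of reads was -7.11 in spheroids and -4.94 between adherent cells. For AKR1C2 it was 6.58 and 6.08, and in both genes the counting intervals overlapped. The spheroid medians of 33 of 41 gene lists kept their sign.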

Other observations

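Genes outside the lists, picked after their values were seen, add to the description. ACSL4, which activates polyunsaturated fatty acids, had an FPKM of 16.6 adherent and 21.9 in spheroids of HCT116, against 19.9 adherent and 379 in spheroids of LOVO, with line differences of 4.05 and 0.25 in spheroids and adherent cells. The transcriptional repressor BCL6 was 8.16 adherent and 12 in spheroids of HCT116, against 8.11 adherent and 112 in spheroids of LOVO, and IRAK2, a kinase of interleukin 1 receptor signalling, was 3.45 adherent and 2.32 in spheroids of HCT116, against 1.67 adherent and 29.7 in spheroids of LOVO. In these 3 genes the LOVO spheroid library stood apart from the other 3. HIF1A, the oxygen-regulated transcription factor, was 25.1 adherent and 32.2 in spheroids of HCT116, against 100.1 adherent and 269 in spheroids of LOVO, and PTGS1, the constitutive cyclooxygenase, was 4.83 adherent and 6.17 in spheroids of HCT116, against 13.7 adherent and 102 in spheroids of LOVO. TNFSF15, a cytokine of the TNF family, was 0.0871 adherent and 0.521 in spheroids of HCT116, against 0.0565 adherent and 12.3 in spheroids of LOVO.

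On the lower side, KITLG, the ligand of the receptor KIT, was 118 adherent and 237 in spheroids of HCT116, against 16.5 adherent and 11.3 in spheroids of LOVO, and the giant cadherin FAT1 was 139 adherent and 244 in spheroids of HCT116, against 7.43 adherent and 5.63 in spheroids of LOVO. HLA-DRA, an MHC class II chain, was 7.93 adherent and 20.8 in spheroids of HCT116, against 0 adherent and 0.0388 in spheroids of LOVO, opposite in direction to the MHC class I genes. In these 3 genes HCT116 spheroids were the highest library and both LOVO libraries were low. The long non-coding RNA UCA1 was 13.1 adherent and 50.6 in spheroids of HCT116, against 0.0269 adherent and 0.79 in spheroids of LOVO. Mitochondrial RNAs were also among the lower genes: MT-RNR1, the small ribosomal RNA, was 1057 adherent and 1800.2 in spheroids of HCT116, against 603 adherent and 351 in spheroids of LOVO, and the mitochondrial share of reads, 11.1% in HCT116 spheroids and 3.97% in LOVO spheroids, moved with it. RPL7, a ribosomal protein gene, was 508 adherent and 333 in spheroids of HCT116, against 243 adherent and 75.4 in spheroids of LOVO, and its pseudogene RPL7P1, which can share its reads, was 228 adherent and 152 in spheroids of HCT116, against 103 adherent and 32.4 in spheroids of LOVO.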
